A study of Mus musculus with 16 samples.

Results

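The genes described here encode the nuclear subunits of the mitochondrial respiratory chain and ATP synthase, together with some of their assembly factors. A gene was taken when its symbol begins with Nduf, with Sdh followed by a to d, with Uqcr, with Cox followed by a digit from 4 to 8, or with Atp5, and when it had a probe set annotated with 1 symbol only. This gave 93 of the 19938 genes measured. They were grouped as 36 genes of complex I, 4 of complex II, 8 of complex III, 17 of complex IV, 17 of complex V and 11 assembly factors (Ndufaf and Sdhaf). In the reference annotation 100 protein-coding genes carry such a symbol, and 7 of them were not analysed here.

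RNA was compared between normal mouse brain and 3 kinds of genetically induced brain tumour, with 4 arrays in each group. The control group was brain tissue with wild-type Pdgfb, Trp53 and Rbpj. In the PDGF+p53-/- tumours (PDGF-p53), a retrovirus carrying PDGF-IRES-Cre supplied PDGF-B and Cre recombinase together in mice with floxed p53. The PDGF+p53-/-RBPjk-/- tumours (PDGF-p53-RBPJ) came from the same virus in mice that also carried floxed RBPjk, which encodes the DNA-binding protein of Notch signalling. The p53-/-RBPjk-/- tumours (p53-RBPJ) had no virus: the floxed p53 and RBPjk alleles were deleted by the Hes5::CreERT2 transgene, which acts in Hes5+ cells. All 3 kinds therefore lack p53. The first pair differ in RBPjk, and p53-RBPJ tumours differ from both in the added PDGF-B and in the way Cre was delivered. Tumours were collected from mice with symptoms, recognised by a GFP reporter that Cre turns on and dissected under its light, so host cells within the dissected piece are part of each sample. The labels do not say that the 4 arrays of a group are separate animals. The p-values therefore measure the spread between these samples, which may be partly technical.

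The respiratory chain passes electrons from NADH (complex I) and succinate (complex II) through complex III to oxygen at complex IV, and complexes I, III and IV pump protons across the inner mitochondrial membrane. ATP synthase, complex V, uses the return of these protons through a rotating ring of c subunits to make ATP. Most subunits are encoded in the nucleus and a few in mitochondrial DNA, and neurons are among the cells of the brain with the highest demand for this ATP.

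Values are log2 expression values, so a difference of 1 is a doubling. They correlated with r between 0.971 and 0.989 within a group, and array medians lay between 5.97 and 6.06. Rbpj lay between 7.55 and 7.88 in PDGF-p53-RBPJ tumours and between 7.64 and 7.93 in p53-RBPJ tumours, below the range of 8.17 to 8.5 in PDGF-p53 tumours, and overlapped with control brain (7.76 to 8.21). The limma adjusted p of these differences was 0.269 and 0.0191 against PDGF-p53 tumours, and 0.101 and 0.183 against control brain. Pdgfb lay between 5.81 and 6.31 in PDGF-p53 tumours and between 5.69 and 6.20 in control brain. Which part of either gene its probe set reads is not given in the sources used here, so these values are a weak check of the labels. The markers fitted the labelled tissue: all 14 neuron markers measured were lower in each tumour group than in control brain, and all 10 markers of oligodendrocyte precursors and all 15 proliferation genes were higher. The mean level of the neuron markers was 10.5 in every control array, 7.19 to 8.65 in PDGF-p53, 7.14 to 8.31 in PDGF-p53-RBPJ tumours and 6.44 to 7.65 in p53-RBPJ tumours. Of the respiratory chain genes, 87 had a mean above the median level of all genes (6.29). The 6 at or below it were Ndufa4l2, Cox4i2, Cox7a1, Cox7b2, Cox8b and Cox8c.

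Promoter sequences of 77 of the 93 genes were found in RefSeq (build GRCm38.p6), as windows from 250 bases before to 50 bases after the start of transcription. Windows were searched on both strands for the recognition letters of nuclear respiratory factor NRF1 and of YY1, for CCGGAAGT (ETS factors such as GABP) and for TCAAGGTCA (oestrogen-related receptors). Matches of different motifs may overlap in part and were counted separately. Of the 77 genes, 20 had the NRF1 letters (26%), against 7.87% of the 15562 array genes with a window. The ETS letters were in 5 (6.49%, against 6.03%), the YY1 letters in 5 (6.49%, against 1.49%) and the receptor letters in 2 (2.6%, against 0.35%). A match is a description of the sequence and does not show that a factor binds. Any of these letters were in 28 of the 77 genes. The 250 bases before the start are printed below for 6 genes, 5′ to 3′ along the gene's strand, with the matches in capitals. They were chosen only among genes with a match. Atp5g1, Atp5md, Ndufv1 and Ndufaf3, whose values are given below, had a window without a match. Ndufa11 had the largest fall in p53-RBPJ tumours, Sdha was the only gene of complex II called, and Uqcr11 stands for the ETS letters. Cox6a1 is a widely expressed paralogue of cytochrome oxidase. Atp5g2 and Atp5g3 are paralogues of the c subunit. Atp5g2 was called higher in all 3 tumour types, and Atp5g3 lower in PDGF-p53-RBPJ and p53-RBPJ tumours only.
Ndufa11 (chr17:56717512-56717761, plus strand): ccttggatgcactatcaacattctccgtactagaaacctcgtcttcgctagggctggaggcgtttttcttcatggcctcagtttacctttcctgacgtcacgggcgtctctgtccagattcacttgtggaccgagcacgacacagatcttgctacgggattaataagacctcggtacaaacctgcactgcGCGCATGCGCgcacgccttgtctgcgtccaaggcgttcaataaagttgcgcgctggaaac
Sdha (chr13:74350241-74350490, minus strand): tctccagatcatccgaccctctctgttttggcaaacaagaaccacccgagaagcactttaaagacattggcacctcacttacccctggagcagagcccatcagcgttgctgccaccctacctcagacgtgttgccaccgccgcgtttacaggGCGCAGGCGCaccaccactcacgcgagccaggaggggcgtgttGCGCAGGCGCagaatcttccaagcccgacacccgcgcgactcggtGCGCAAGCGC
Uqcr11 (chr10:80406822-80407071, minus strand): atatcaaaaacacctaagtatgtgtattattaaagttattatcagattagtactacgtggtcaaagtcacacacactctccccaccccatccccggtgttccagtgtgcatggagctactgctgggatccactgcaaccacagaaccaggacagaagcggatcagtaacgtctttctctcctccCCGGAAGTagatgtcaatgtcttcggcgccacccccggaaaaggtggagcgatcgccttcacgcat
Cox6a1 (chr5:115348959-115349208, minus strand): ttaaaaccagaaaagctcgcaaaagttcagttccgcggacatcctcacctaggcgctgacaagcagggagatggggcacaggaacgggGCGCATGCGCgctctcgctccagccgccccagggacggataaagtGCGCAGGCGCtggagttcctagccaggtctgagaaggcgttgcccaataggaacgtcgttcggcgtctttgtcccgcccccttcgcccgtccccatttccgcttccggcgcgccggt
Atp5g2 (chr15:102671048-102671297, minus strand): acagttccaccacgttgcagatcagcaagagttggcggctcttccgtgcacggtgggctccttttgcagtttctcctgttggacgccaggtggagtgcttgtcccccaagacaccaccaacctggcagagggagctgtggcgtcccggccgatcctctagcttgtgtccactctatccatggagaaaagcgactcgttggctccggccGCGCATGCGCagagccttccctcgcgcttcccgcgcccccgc
Atp5g3 (chr2:73911327-73911576, minus strand): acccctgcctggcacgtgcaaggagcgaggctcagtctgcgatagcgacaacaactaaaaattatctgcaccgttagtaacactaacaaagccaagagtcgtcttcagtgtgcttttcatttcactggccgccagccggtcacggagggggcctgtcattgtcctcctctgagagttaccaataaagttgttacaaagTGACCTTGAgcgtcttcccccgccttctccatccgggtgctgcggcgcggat
The NRF1 letters occurred in Ndufa11, Sdha, Cox6a1 and Atp5g2 (1, 3, 2 and 1 matches in the printed bases), the ETS letters in Uqcr11 and the receptor letters in Atp5g3. The match in Ndufa11 began 60 bases before the start and that in Atp5g2 42 bases before it. Atp5g3 also had the NRF1 letters in the 50 bases after its start, which are not printed. The NRF1 letters were in 9 of the 34 genes with a window that were lower in all 3 tumour types (26.5%) and in 5 of the 20 that were lower in none (25%). In the same sets the ETS letters were in 5 (14.7%) and 0, the YY1 letters in 2 and 2, and the receptor letters in 0 and 1. Differences between these sets were not tested.

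Respiratory chain genes were mostly lower in tumours than in control brain, with calls in all 5 complexes and only 1 in complex II. At an adjusted p under 0.05, 51 of the 93 were lower and 1 was higher in PDGF-p53 tumours, where 17.6% of all genes were lower and 13.6% higher (31.1% in either direction). In PDGF-p53-RBPJ tumours 46 were lower and 2 higher (all genes, 17.9% and 15.7%, together 33.6%), and in p53-RBPJ tumours 64 were lower and 3 higher (20.4% and 16.4%, together 36.8%). The median log2 difference of the 93 genes was -0.42, -0.39 and -0.53 in these 3 comparisons, and that of all genes was -0.04, -0.03 and -0.02. The shifts were moderate: the largest fall of any member was 1.22 on the log2 scale, or 2.32-fold, for Ndufa11 in p53-RBPJ tumours. The 3 comparisons use the same 4 control arrays and so are not independent of each other. Centring the arrays on 10 housekeeping genes moved the median of all genes by -0.30, -0.38 and -0.27. These 10 genes were themselves not stable: 6, 6 and 5 were called higher and 2, 2 and 3 lower, from -1.14 (Hprt) to 1.25 (Rplp0) in PDGF-p53 tumours, so neither scaling is a fixed reference. It gave 80, 82 and 80 members lower, while 44.2%, 53.9% and 39.7% of all genes were then lower and 7.1%, 7.37% and 9.27% higher. Housekeeping centring takes the same value from every gene of an array. The median of the members minus that of all genes therefore had to be the same under either scaling, at -0.37, -0.36 and -0.50.

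Of the 93 genes, 40 were lower in all 3 tumour types, 27 in 1 or 2 of them, and 23 were called in none. The 40 comprised 17 genes of complex I, 1 of complex II, 5 of complex III, 10 of complex IV, 5 of complex V and 2 assembly factors. When each of the 16 arrays was left out in turn, 26 of the 40 kept all 3 calls in every fit: Ndufa4, Ndufa5, Ndufa10, Ndufa11, Ndufa12, Ndufb9, Ndufb10, Ndufc2, Ndufs7, Ndufv1, Ndufv3, Sdha, Uqcrc2, Uqcrh, Cox4i1, Cox5b, Cox6a1, Cox6c, Cox7a2, Cox7b, Cox8a, Atp5g1, Atp5h, Atp5md, Ndufaf3 and Ndufaf5. Atp5g2 was the only gene higher in all 3. The mean difference of the 93 genes from the control mean was -0.42, -0.31, -0.42 and -0.44 in the PDGF-p53 arrays, -0.35, -0.27, -0.31 and -0.40 in the PDGF-p53-RBPJ arrays, and -0.31, -0.49, -0.60 and -0.59 in the p53-RBPJ arrays. The control arrays lay at -0.16, 0.07, -0.01 and 0.11, so every tumour array was below every control array. In bulk tissue, fewer cells of a type and less RNA per cell cannot be told apart.

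**Figure D1:**
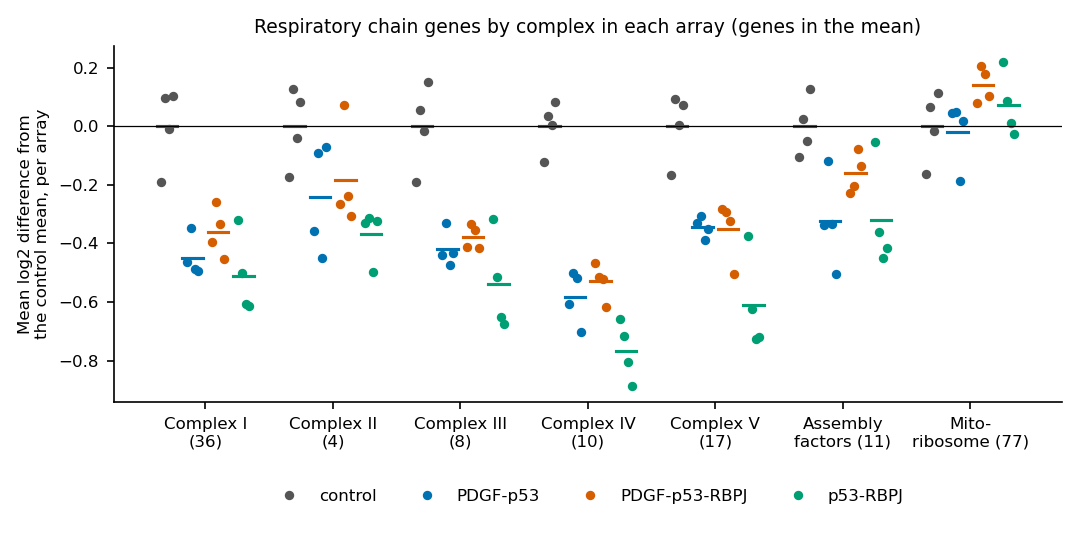
Mean log2 difference from the control mean (vertical axis) over the genes of each complex, 1 point per array and a bar at the mean of the 4 arrays, coloured by group. The tumour arrays of complexes I, III, IV (10 widely expressed genes) and V lie below all control arrays, while those of the mitochondrial ribosome (77 genes) lie around 0 at the deposited scaling. With housekeeping centring the ribosome medians are -0.29, -0.25 and -0.22, and those of all genes -0.34, -0.41 and -0.29.

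Neuron markers were lower in the same tumours. Their mean difference from control brain was -2.77 ± 0.65 (SD, n = 4), -2.88 ± 0.50 and -3.62 ± 0.55, beside -0.40 ± 0.06, -0.33 ± 0.06 and -0.50 ± 0.14 for the respiratory chain genes. Markers of mature oligodendrocytes (7, 6 and 7 of 9) and astrocytes (8 of 10 in each tumour type) were also lower. So were 2, 2 and 3 of 7 of endothelium and 2, 4 and 3 of 7 of choroid plexus and ependyma (all genes, 17.6%, 17.9% and 20.4%). Other lists moved less. Mean differences were 0.25, 0.17 and -0.10 for microglia and macrophages and -0.215, -0.05 and -0.19 for mural cells. For the 2 erythroid markers measured they were 0.11, 0.23 and 0.21. The mean level of the endothelial markers was 6.98 to 7.22 in control brain and 6.36 to 6.79 over the tumour arrays, and that of choroid plexus and ependyma was 6.07 to 6.92 and 5.31 to 6.0. The part of these cell types in the respiratory chain result was not tested.

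**Figure D2:**
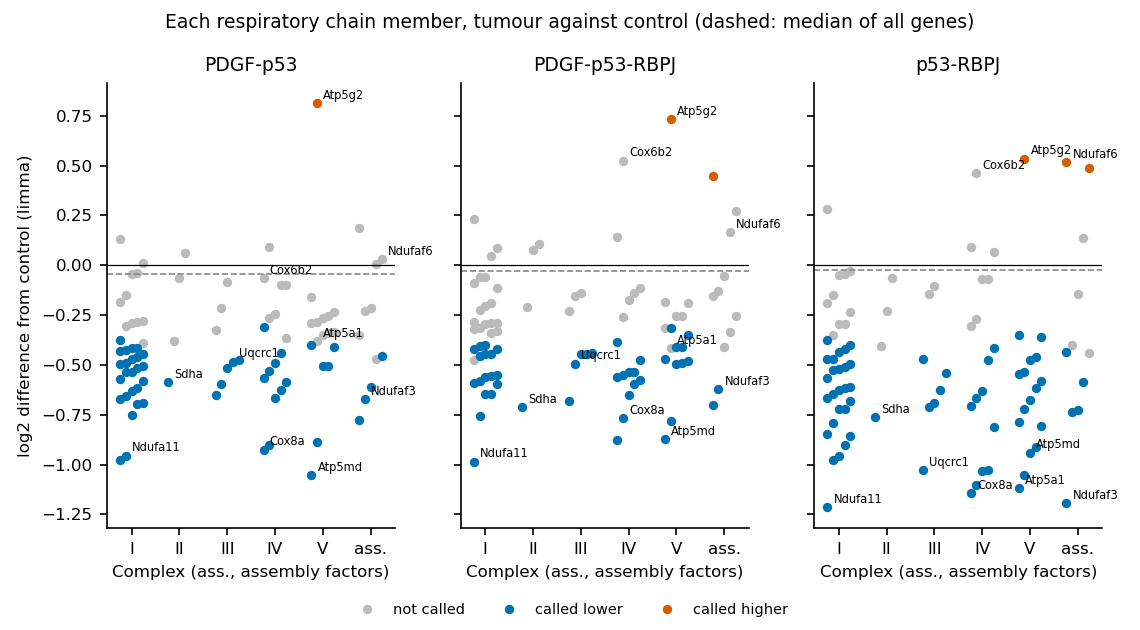
Log2 difference from control (vertical axis, limma) of each of the 93 genes by complex, with genes called lower in blue, called higher in orange and not called in grey. The dashed line is the median of all genes, which lies near 0, and Atp5g2 stands at the top of each panel while Ndufa11, Atp5md, Cox8a or Ndufaf3 lie near the bottom.

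Complex I, the NADH dehydrogenase that feeds electrons into the chain, fell broadly. Of its 36 genes, 25 were lower in PDGF-p53, 17 in PDGF-p53-RBPJ tumours and 26 in p53-RBPJ tumours, with none higher, and the median differences were -0.46, -0.37 and -0.51. Ndufv1, which encodes the flavoprotein that accepts electrons from NADH, read 8.81, 9.20, 8.97 and 9.04 in control brain. It read 7.73, 8.0, 7.84 and 8.53 in PDGF-p53, 8.26, 8.71, 8.5 and 7.98 in PDGF-p53-RBPJ tumours and 8.32, 8.05, 7.69 and 8.06 in p53-RBPJ tumours. No tumour array reached the lowest control array. The differences were -0.98 ± 0.19 (SE, n = 4 against 4; limma adjusted p = 0.000496), -0.64 ± 0.19 (0.0114) and -0.98 ± 0.19 (0.000376).

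Ndufv1 belongs to the core subunits, which carry the flavin, the iron-sulfur clusters and the quinone site. Of 6 core genes measured (Ndufs1, Ndufs3, Ndufs7, Ndufs8, Ndufv1 and Ndufv2), 5 were lower in PDGF-p53, 4 in PDGF-p53-RBPJ tumours and 5 in p53-RBPJ tumours. Ndufs7, which holds the last iron-sulfur cluster before quinone, differed by -0.52, -0.55 and -0.72. Ndufv2 was called in none (-0.39, -0.29 and -0.35).

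Among the 30 accessory genes, 20, 13 and 21 were lower. Ndufa11, an accessory subunit of the membrane arm whose promoter is printed above, read 9.96, 10.44, 10.25 and 10.31 in control brain. It read 8.97, 9.39, 9.33 and 9.45 in PDGF-p53, 9.25, 9.39, 9.43 and 8.95 in PDGF-p53-RBPJ tumours and 9.19, 8.82, 8.97 and 9.12 in p53-RBPJ tumours. The highest tumour array (9.45) lay below the lowest control array (9.96). The differences were -0.96 ± 0.15, -0.99 ± 0.15 and -1.22 ± 0.15 (limma adjusted p = 6.21e-05, 3.88e-05 and 3e-06). Ndufa4, which carries a complex I symbol but is now counted as a subunit of complex IV, differed by -0.57, -0.58 and -0.86.

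The fall was not shared by all of complex I. Ndufa7, an accessory subunit of the matrix arm, differed by 0.01 ± 0.15, 0.23 ± 0.15 and 0.28 ± 0.15 and was called in none (limma adjusted p = 0.974, 0.265 and 0.164). The other genes called in none were Ndufa4l2, Ndufa9, Ndufab1, Ndufb7, Ndufb11, Ndufs4 and Ndufv2. Of these, Ndufab1, which also serves as the acyl carrier protein of mitochondrial fatty acid synthesis, differed by -0.04, -0.09 and -0.04.

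Of complex II, which is succinate dehydrogenase and belongs to the citric acid cycle as well as to the chain, only the flavoprotein gene Sdha was called. Sdha read 10.83, 11.07, 10.90 and 11.14 in control brain, 10.26, 10.35, 10.38 and 10.60 in PDGF-p53, 10.25, 10.41, 10.29 and 10.13 in PDGF-p53-RBPJ tumours and 9.89, 10.32, 10.20 and 10.47 in p53-RBPJ tumours. The groups did not overlap with control brain. The differences were -0.59 ± 0.13, -0.71 ± 0.13 and -0.76 ± 0.13 (limma adjusted p = 0.00198, 0.000318 and 0.000134).

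The iron-sulfur subunit Sdhb differed by -0.38 ± 0.14 in PDGF-p53 tumours, just short of the threshold (limma adjusted p = 0.0528), and by -0.21 and -0.23 in the others. The membrane anchors Sdhc and Sdhd, which bind quinone, gave no call. Sdhc differed by -0.06, 0.08 and -0.06, with a 95% interval of -0.35 to 0.22 in PDGF-p53 tumours. Sdhd differed by 0.06, 0.11 and -0.41, and in p53-RBPJ tumours its 4 arrays (7.70, 7.68, 7.51 and 7.42) lay below the lowest control array (7.77) at an limma adjusted p of 0.12. With only these 2 groups fitted, Sdhd passed (limma adjusted p = 0.0303).

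Complex III, the cytochrome bc1 complex, had 5 of 8 genes lower in PDGF-p53, 5 in PDGF-p53-RBPJ tumours and 6 in p53-RBPJ tumours, and all 8 differences were negative in each. Uqcrc2, a core protein of the matrix side, read 10.35, 10.60, 10.60 and 10.69 in control brain and 9.86, 9.92, 10 and 9.86 in PDGF-p53 tumours. It read 9.96, 9.83, 10.03 and 9.69 in PDGF-p53-RBPJ tumours and 10.22, 9.92, 9.76 and 9.83 in p53-RBPJ tumours, with no overlap with control brain. The differences were -0.65 ± 0.12, -0.68 ± 0.12 and -0.62 ± 0.12 (limma adjusted p = 0.000438, 0.000244 and 0.000457). Uqcrh, the hinge protein beside cytochrome c1, differed by -0.48, -0.45 and -0.54.

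The other core protein, Uqcrc1, differed by -0.48 ± 0.15 and -0.49 ± 0.15 in the PDGF tumours and by -1.03 ± 0.15 in p53-RBPJ tumours. Its calls in the PDGF tumours were close to the threshold and were lost in some leave-one-out fits. Omitting control replicate 3 (-0.45, adjusted p = 0.0569), control replicate 4 (-0.42, 0.0655) or PDGF-p53 array 3 (-0.42, 0.0603) ended the first call. The second ended on omitting control replicate 4 (-0.43, 0.0553) or PDGF-p53-RBPJ array 4 (-0.40, 0.0635). Uqcrb, the ubiquinone-binding subunit, and Uqcrfs1, the Rieske iron-sulfur protein, were called in none. Uqcrb differed by -0.09, -0.23 and -0.10 and Uqcrfs1 by -0.32, -0.16 and -0.14.

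Of 10 genes of complex IV, cytochrome c oxidase, without paralogues of restricted expression, 9 were lower in each tumour type (median differences -0.58, -0.57 and -0.76). Cox4i1, a subunit through which ATP and ADP tune the enzyme, read 11.71, 12.05, 12.19 and 12.11 in control brain. It read 10.97, 11.18, 11.25 and 11.05 in PDGF-p53, 11.24, 11.26, 11.19 and 10.87 in PDGF-p53-RBPJ tumours and 10.86, 11.12, 11.15 and 10.51 in p53-RBPJ tumours. Every tumour array was below every control array, and the differences were -0.90 ± 0.15, -0.87 ± 0.15 and -1.1 ± 0.15 (limma adjusted p = 0.000153, 0.00018 and 1.24e-05).

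Cox8a, a small membrane subunit, read 10.50, 10.54, 10.82 and 10.64 in control brain, 9.18, 9.58, 9.88 and 10.17 in PDGF-p53, 9.85, 10.13, 9.92 and 9.53 in PDGF-p53-RBPJ tumours and 9.58, 9.48, 9.26 and 9.61 in p53-RBPJ tumours. The PDGF-p53 arrays spread widest, but none reached control brain. The differences were -0.93 ± 0.18, -0.77 ± 0.18 and -1.14 ± 0.18. Cox5a and Cox5b, which lie on the matrix side, differed by -0.53, -0.47 and -1.03 and by -0.63, -0.58 and -0.66. Cox6a1, Cox6b1, Cox6c, Cox7a2 and Cox7b also fell in each tumour type, by between 0.31 (Cox6b1 in PDGF-p53) and 1.03 (Cox7a2 in p53-RBPJ).

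Some of these calls were close to the threshold. For Cox6b1 in PDGF-p53 tumours, omitting control replicate 4 (-0.29, adjusted p = 0.0599), or tumour array 1 (-0.30, 0.0566) or 4 (-0.27, 0.0663), ended the call, as did fitting only these 2 groups (0.0514). For Cox5a in PDGF-p53-RBPJ tumours, omitting control replicate 4 (-0.38, 0.0599) or tumour array 4 (-0.41, 0.0533) did so. The exception among the widely expressed genes was Cox7a2l, a factor that joins complexes III and IV into supercomplexes. It read 10.26, 10.44, 10.57 and 10.68 in control brain and differed by -0.26, 0.14 and -0.07, with no call.

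Several subunits have paralogues of restricted expression, in muscle, testis, lung or under low oxygen. Of 8 such genes (Ndufa4l2, Cox4i2, Cox6a2, Cox6b2, Cox7a1, Cox7b2, Cox8b and Cox8c), 1, 2 and 1 were lower and none higher. This is near the share of all genes lower (17.6%, 17.9% and 20.4%). Of 8 widely expressed counterparts, 7 were lower in each tumour type. Of these 8 restricted genes, 6 are the dim ones named above. With housekeeping centring 5, 6 and 3 of the restricted genes were lower (8, 7 and 8 of the counterparts, and 44.2%, 53.9% and 39.7% of all genes). Cox4i2, the paralogue of Cox4i1 found in lung, read 5.64, 5.66, 5.85 and 5.82 in control brain and differed by 0.09, -0.11 and 0.09. Cox6b2, the testis form, read 6.53, 6.69, 6.54 and 7.15 in control brain and 6.92, 7.12, 7.01 and 7.96 in PDGF-p53-RBPJ tumours, a difference of 0.53 ± 0.25 that did not pass (limma adjusted p = 0.122). Its values overlapped between the groups.

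The muscle form Cox6a2 was lower in PDGF-p53-RBPJ tumours (-0.54 ± 0.12, limma adjusted p = 0.00171) and not called in the other 2 (-0.24 and -0.31). The muscle form Cox7a1, a dim gene at 5.76 to 6.17 in control brain, differed by -0.49, -0.54 and -0.42. In p53-RBPJ tumours the call ended on omitting control replicate 4 (-0.34, adjusted p = 0.0902) or tumour array 2 (-0.40, 0.061), 3 (-0.38, 0.0682) or 4 (-0.41, 0.0511). Of 7 markers of skeletal or cardiac muscle, 1, 2 and 1 were lower (all genes, 17.6%, 17.9% and 20.4%) and none higher. Their part in these values was not tested.

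Of 17 genes of complex V, the ATP synthase, 6 were lower in PDGF-p53, 10 in PDGF-p53-RBPJ tumours and 16 in p53-RBPJ tumours, and Atp5g2 was the only one higher in each. The median differences were -0.34, -0.41 and -0.61. These counts are no test of a difference between tumour types, which is given further on. The catalytic F1 head (Atp5a1, Atp5b, Atp5c1, Atp5d and Atp5e) had 0 of 5 genes lower in PDGF-p53, 2 in PDGF-p53-RBPJ tumours and 5 in p53-RBPJ tumours, and with housekeeping centring 5 of 5 were lower in each (medians -0.55, -0.69 and -0.81). Atp5b, the catalytic beta subunit, differed by -0.24, -0.35 and -0.35, and Atp5e, the small epsilon subunit, by -0.16, -0.19 and -0.55.

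Atp5a1, the alpha subunit of the head, read 11.05, 11.47, 11.20 and 11.38 in control brain, 10.47, 11.15, 10.81 and 11.15 in PDGF-p53, 11.01, 11.12, 11.03 and 10.28 in PDGF-p53-RBPJ tumours and 10.33, 10.13, 9.92 and 10.26 in p53-RBPJ tumours. The p53-RBPJ arrays lay below all control arrays, while 2 PDGF-p53 arrays and 1 PDGF-p53-RBPJ array reached the control range. PDGF-p53 replicate 1 and PDGF-p53-RBPJ replicate 4 were the lowest of their groups. The differences were -0.38 ± 0.19, -0.42 ± 0.19 and -1.12 ± 0.19, of which only the last was called (limma adjusted p = 0.142, 0.1 and 0.000111).

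Atp5md, a small membrane subunit at the dimer interface of ATP synthase, read 11.11, 11.16, 11.23 and 11.04 in control brain, 10.09, 9.89, 10.25 and 10.11 in PDGF-p53, 10.95, 9.93, 10.31 and 9.89 in PDGF-p53-RBPJ tumours and 9.99, 10.03, 10.49 and 10.28 in p53-RBPJ tumours. PDGF-p53-RBPJ replicate 1 lay just under control brain and the other tumour arrays well below it. The differences were -1.05 ± 0.19, -0.87 ± 0.19 and -0.94 ± 0.19 (limma adjusted p = 0.000287, 0.00136 and 0.000585). The stalk subunit Atp5h, which helps hold the head still, differed by -0.51, -0.50 and -0.72.

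The c subunit, whose ring turns as protons pass, is made from 3 genes that encode the same mature protein and differ in their import sequence. These 3 genes moved apart. Atp5g1 read 9.25, 9.84, 9.70 and 9.67 in control brain, 8.71, 8.82, 8.58 and 8.80 in PDGF-p53, 8.82, 9.02, 8.87 and 8.62 in PDGF-p53-RBPJ tumours and 8.78, 8.49, 8.58 and 8.41 in p53-RBPJ tumours. All tumour arrays were below all control arrays, with differences of -0.89 ± 0.14, -0.78 ± 0.14 and -1.05 ± 0.14 (limma adjusted p = 6.28e-05, 0.000186 and 6.54e-06).

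Atp5g2 read 10.38, 10.65, 10.66 and 10.73 in control brain, 11.36, 11.53, 11.26 and 11.53 in PDGF-p53, 11.34, 11.46, 11.27 and 11.28 in PDGF-p53-RBPJ tumours and 11.34, 11.08, 10.87 and 11.27 in p53-RBPJ tumours. Here all tumour arrays were above all control arrays, with differences of 0.81 ± 0.12, 0.73 ± 0.12 and 0.54 ± 0.12 (limma adjusted p = 5.75e-05, 0.000142 and 0.00199). The last call was lost when arrays were centred on housekeeping genes (0.26, adjusted p = 0.0667). Atp5g3, whose promoter carries the receptor letters, differed by -0.29, -0.41 and -0.58 and was called lower in the latter 2.

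Within an array, the log2 ratio of Atp5g2 to Atp5g1 rose over its control mean by 1.70 ± 0.04 (SD, n = 4) in PDGF-p53, 1.52 ± 0.12 in PDGF-p53-RBPJ tumours and 1.59 ± 0.23 in p53-RBPJ tumours, while the control arrays spread from -0.18 to 0.14. The ratio of Atp5g2 to Atp5g3 rose by 1.1 ± 0.20, 1.14 ± 0.08 and 1.11 ± 0.10. A ratio within an array does not depend on the scaling of that array. It shows that the genes changed unequally.

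**Figure D3:**
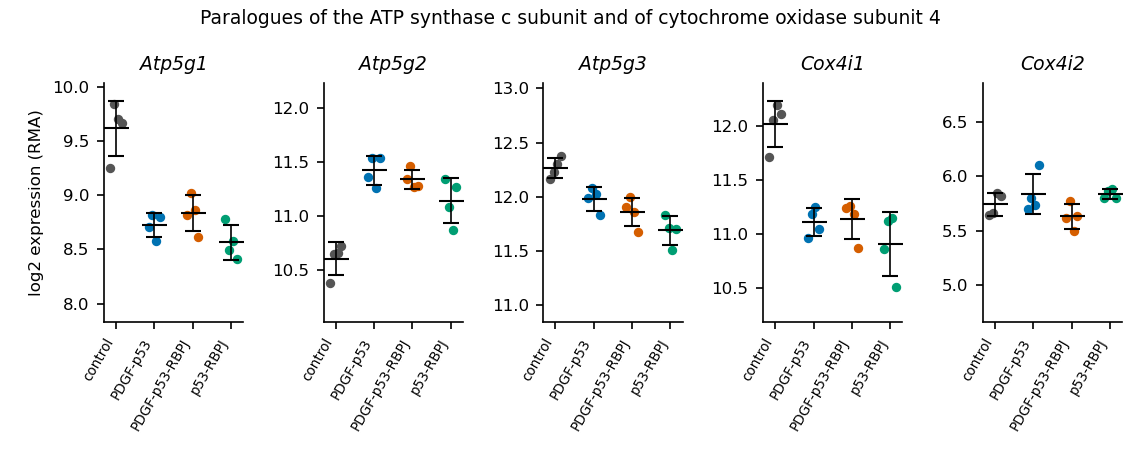
Log2 expression (vertical axis, the same span of 2.2 in each panel) of the 3 genes of the c subunit and of Cox4i1 and Cox4i2, with 1 point per array and the mean and SD of each group of 4. Atp5g1 and Cox4i1 are lower and Atp5g2 is higher in all tumour arrays than in all control arrays, and Cox4i2 lies between 5.5 and 6.10 in all groups.

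The 11 assembly factors, which help build complexes I and II without staying in them, were mixed: 4, 2 and 5 were lower and 0, 1 and 2 higher. Of all genes, 17.6%, 17.9% and 20.4% were lower and 13.6%, 15.7% and 16.4% higher. Ndufaf3, which acts early in building complex I, read 8.43, 8.28, 8.61 and 8.73 in control brain, 7.88, 7.75, 7.88 and 7.85 in PDGF-p53, 7.86, 8.07, 7.95 and 7.69 in PDGF-p53-RBPJ tumours and 7.37, 7.31, 7.06 and 7.53 in p53-RBPJ tumours. All tumour arrays were below control brain and the p53-RBPJ arrays were the lowest of all. The differences were -0.67 ± 0.13, -0.62 ± 0.13 and -1.19 ± 0.13 (limma adjusted p = 0.000498, 0.000915 and 8.11e-07). Ndufaf5, which modifies the core subunit Ndufs7, differed by -0.78, -0.70 and -0.73.

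Ndufaf2 and Ndufaf6 went the other way. Ndufaf2, a chaperone of late complex I assembly, was higher in PDGF-p53-RBPJ (0.45 ± 0.13) and p53-RBPJ tumours (0.49 ± 0.13), with 0.19 in PDGF-p53. Ndufaf6 read 6.16, 5.90, 6.16 and 6.41 in control brain and 6.76, 6.81, 6.65 and 6.48 in p53-RBPJ tumours, a rise of 0.52 ± 0.12 (limma adjusted p = 0.00227), and differed by 0.03 and 0.17 in the PDGF tumours. With housekeeping centring these rises did not pass: Ndufaf2 was at 0.07 and 0.22 (adjusted p = 0.676 and 0.199) and Ndufaf6 at 0.25 (0.125). Centred by chromosome, as described further on, Ndufaf2 did not pass either (0.29 and 0.18; adjusted p = 0.0716 and 0.252). Sdhaf1, which helps insert the iron-sulfur clusters of Sdhb, differed by 0.01, 0.27 and -0.14 and was called in none.

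The tumour types were then compared with each other. Between PDGF-p53-RBPJ and PDGF-p53 tumours, which differ in the RBPjk allele, limma called 0 of the 93 genes, and 0.0201% of all genes (0.015% higher and 0.00502% lower). At an unadjusted p under 0.05 there were 3 of the 93 (5.18% of all genes), and the median difference was 0.05. A difference that misses the threshold does not show that the tumours are alike: for Ndufv1, the difference was 0.34 with a 95% interval of -0.05 to 0.73. The calls were also 0 in every leave-one-out fit.

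These comparisons share the p53-RBPJ arrays. p53-RBPJ tumours had a lower median than PDGF-p53-RBPJ tumours (-0.16 over the 93 genes, -0.01 over all genes) and than PDGF-p53 tumours (-0.13, against 0.01). Against PDGF-p53-RBPJ, 4 genes were lower and 0 higher (2.63% and 0.637% of all genes, together 3.27%): Ndufa2, Atp5a1, Cox5a and Ndufaf3. Against PDGF-p53, 5 were lower and 1 higher (3.61% and 1.93% of all genes, together 5.54%): Atp5a1, Atp5l, Uqcrc1, Cox5a and Ndufaf3 were lower and Ndufaf6 was higher. The limma adjusted p lay between 0.0218 and 0.0497, and the counts were near the shares of all genes.

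No call between tumour types was kept in every leave-one-out fit. Against PDGF-p53-RBPJ, omitting any of PDGF-p53-RBPJ arrays 1, 2 and 3 left 0 genes lower, as did omitting p53-RBPJ array 3. Omitting p53-RBPJ array 4 left 1, and omitting control array 1 or 2 left 2. Against PDGF-p53, omitting PDGF-p53 array 2 left 1 gene lower, as did p53-RBPJ array 3. Omitting PDGF-p53 array 3 left 2, as did p53-RBPJ array 4, and 3 were left on omitting control array 2, PDGF-p53 array 1 and, each on its own, PDGF-p53-RBPJ arrays 1 and 3. Ndufaf6 no longer passed on omitting any of PDGF-p53 arrays 2, 3 and 4, or any of p53-RBPJ arrays 1, 2 and 3, although its difference stayed between 0.44 and 0.49 (0.49 with all arrays; limma adjusted p = 0.0517 to 0.07).

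The genes lower in p53-RBPJ than in the PDGF tumours lay on 2 chromosomes of the reference annotation, a grouping made after their values were seen. Uqcrc1, Cox5a, Atp5l and Ndufaf3 are on chromosome 9, with Sdhd and Cox7a2, and Ndufa2 and Atp5a1 are on chromosome 18. Other genes of these chromosomes were lower in the same tumours. Against PDGF-p53-RBPJ, the 541 other genes of chromosome 9 had a median difference of -0.39 and the 275 of chromosome 18 one of -0.50, and 91.7% and 92.4% of them were negative. Against PDGF-p53 these medians were -0.37 and -0.44. The 6 respiratory chain genes on chromosome 9 had medians of -0.52 and -0.51, and the 85 on chromosomes other than 9 and 18 had medians of -0.14 and -0.07.

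The array values moved together. In the p53-RBPJ arrays the other genes of chromosome 9 had medians of -0.40, -0.18, -0.29 and -0.39 from control brain, and those of chromosome 18 had -0.39, -0.50, -0.49 and -0.36. PDGF-p53 replicate 1 and PDGF-p53-RBPJ replicate 4 also had low medians on chromosome 18 (-0.31 and -0.31, the other PDGF arrays -0.05 to 0.20), and there Atp5a1 read 10.47 and 10.28 and Ndufa2 9.16 and 9.05, the lowest of their groups. Where each array's values were first centred on the other genes of the same chromosome, an alternative chosen after seeing the data, 0 of the 93 genes were called in all 3 comparisons between tumour types. Atp5a1 was then at -0.25 and Ndufaf3 at -0.20 against PDGF-p53-RBPJ. Against control brain the same centring gave 62, 61 and 72 genes lower, beside 51, 46 and 64 before it. The shares of all genes called after this centring are not given here, so these counts are not set against all genes.

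Shifts in both directions were seen on other chromosomes. In p53-RBPJ tumours the 375 other genes of chromosome 13 had medians of 0.32 against control brain and 0.20 against PDGF-p53. The 611 of chromosome 4 had 0.195 and 0.17. Chromosome 13 carries Ndufaf2, Ndufs4, Uqcrb and Uqcrfs1, with Sdha and Ndufs6. Ndufaf6 is on chromosome 4, with Ndufaf4, Ndufb6, Ndufs5, Sdhb and Uqcrh. On chromosome 16, the 330 other genes had medians of -0.24 against PDGF-p53-RBPJ and -0.20 against PDGF-p53 in p53-RBPJ tumours, with 0 of 2 members called. Chromosome 19 carries Ndufv1, Cox8a, Atp5md, Ndufb8, Ndufs8 and Sdhaf2, and its 314 other genes had a median of -0.20 in PDGF-p53 tumours against control brain (-0.43, -0.22, -0.27 and 0.05 by array), where all 6 members were lower. Centred by chromosome, Ndufv1 (-0.79, -0.67 and -0.90), Cox8a (-0.73, -0.80 and -1.07) and Atp5md (-0.86, -0.90 and -0.86) still passed in each tumour type.

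**Figure D4:**
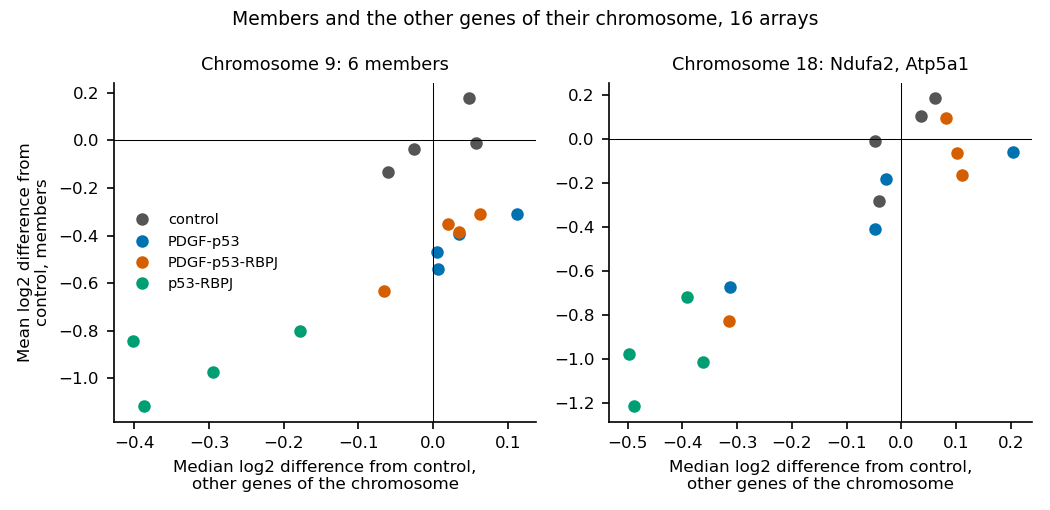
Mean log2 difference from control of the respiratory chain genes on chromosome 9 (left, 6 genes) and chromosome 18 (right, Ndufa2 and Atp5a1), on the vertical axis, against the median of the other genes of that chromosome on the horizontal axis, with 1 point per array. The 4 p53-RBPJ arrays lie at the lower left of both panels, and PDGF-p53 replicate 1 and PDGF-p53-RBPJ replicate 4 lie near them on chromosome 18.

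Other genes of energy metabolism were counted in lists. Beside them, 17.6%, 17.9% and 20.4% of all genes were lower and 13.6%, 15.7% and 16.4% higher. With housekeeping centring 44.2%, 53.9% and 39.7% of all genes were lower and 7.1%, 7.37% and 9.27% higher. Of 17 genes of the citric acid cycle and pyruvate entry, 9, 10 and 12 were lower and 1 higher in each tumour type (with housekeeping centring 14, 15 and 15 lower and 0 higher). Ogdh, of the oxoglutarate dehydrogenase complex, differed by -0.86, -0.75 and -1.21, and Sucla2, the ATP-forming succinyl-CoA ligase subunit, by -0.87, -1.0 and -1.16. Its GTP-forming counterpart Suclg2 was higher by 0.47, 0.55 and 0.65, and with housekeeping centring it did not pass (0.18, 0.17 and 0.38). Of 20 genes of glycolysis and lactate, 8, 9 and 11 were lower and 1, 1 and 0 higher: the neuronal enolase Eno2 differed by -2.29, -2.24 and -3.19, and Hk2, a hexokinase that binds mitochondria, was higher in the PDGF tumours (0.88 and 1.0; with housekeeping centring 0.58, which did not pass, and 0.63).

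Of 32 electron carriers and assembly factors named outside the rule, 11, 9 and 12 were lower (all genes, 17.6%, 17.9% and 20.4%). Some were higher: Etfdh in PDGF-p53 (0.42), Sco1 in PDGF-p53-RBPJ (0.33) and p53-RBPJ (0.42), and Nubpl in p53-RBPJ tumours (0.66). With housekeeping centring 22, 20 and 20 were lower and 0 higher. Atpaf1, which assembles the F1 head, differed by -1.03, -0.95 and -0.72, and Ttc19, which acts on complex III, by -0.77, -0.74 and -1.02. Cytochrome c (Cycs) differed by -0.54, -0.40 and -0.57. Only 2 transcripts of mitochondrial DNA were measured: COX2 differed by -0.10, -0.38 and -0.13 with no call, and ND3 by -0.21, -0.75 and -0.29, called in PDGF-p53-RBPJ tumours only (limma adjusted p = 0.0427), where replicate 2 read 9.70 and the others 10.74 to 11.20.

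Of 77 genes of the mitochondrial ribosome, 9, 2 and 7 were lower and 9, 11 and 13 higher (all genes, 17.6%, 17.9% and 20.4% lower and 13.6%, 15.7% and 16.4% higher), with median differences of 0.00, 0.13 and 0.05. This direction depended on the scaling: with housekeeping centring the medians were -0.29, -0.25 and -0.22, with 33, 27 and 25 lower and 1, 2 and 4 higher. All genes moved as well under that centring, to medians of -0.34, -0.41 and -0.29. Of all genes, 44.2%, 53.9% and 39.7% were then lower and 7.1%, 7.37% and 9.27% higher. Of 21 outer membrane, carrier and import genes, 6, 8 and 7 were lower and 2, 4 and 2 higher (with housekeeping centring 12, 13 and 13 lower and 1, 2 and 1 higher). Ckmt1, the mitochondrial creatine kinase, differed by -2.29, -1.94 and -3.70, and Slc25a12, an aspartate-glutamate carrier, by -0.91, -1.0 and -1.76. Timm50, of the inner membrane import channel, was higher by 0.81, 1.07 and 1.03.

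**Figure D5:**
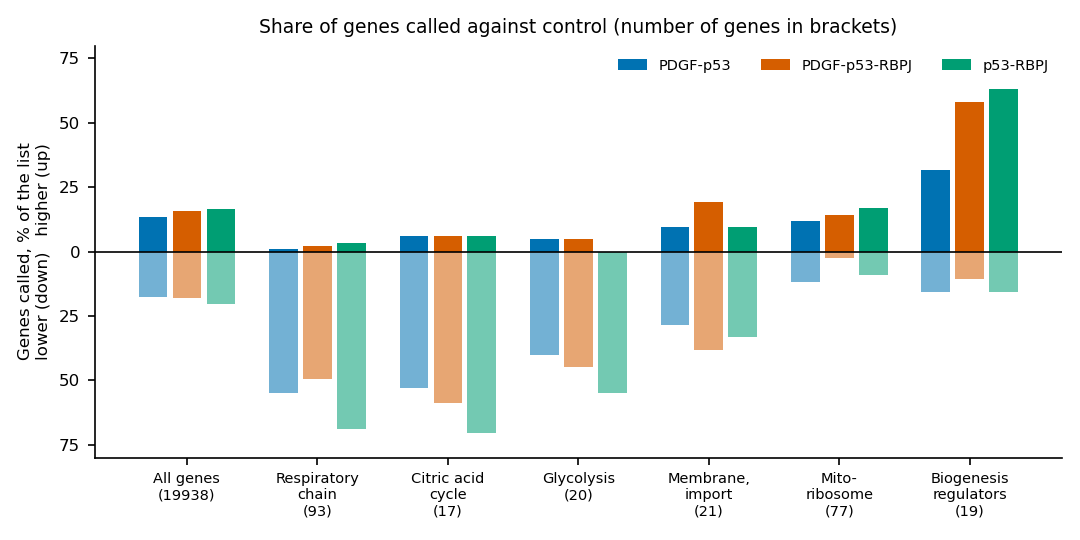
Percent of the genes of each list called higher (up, full colour) or lower (down, light colour) than control brain in each tumour type, with the number of genes in brackets. The respiratory chain, citric acid cycle, glycolysis and membrane and import lists have larger shares of genes lower than all genes do. The mitochondrial ribosome does not, and regulators of biogenesis have a larger share higher. The values drawn are at the deposited scaling. With housekeeping centring 33, 27 and 25 of 77 ribosome genes are lower (all genes, 44.2%, 53.9% and 39.7%). Under that centring 3, 4 and 7 of 19 regulators are higher (all genes, 7.1%, 7.37% and 9.27%).

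Regulators of mitochondrial biogenesis and mitochondrial DNA maintenance were split. Of 19 genes, 6, 11 and 12 were higher and 3, 2 and 3 lower (all genes, 13.6%, 15.7% and 16.4% higher and 17.6%, 17.9% and 20.4% lower). With housekeeping centring 3, 4 and 7 were higher and 6, 6 and 4 lower (all genes, 7.1%, 7.37% and 9.27% higher and 44.2%, 53.9% and 39.7% lower). Ppargc1a, the coactivator that works with NRF1, GABP and the oestrogen-related receptors on respiratory genes, read 9.55, 9.86, 9.42 and 9.51 in control brain, 7.40, 6.99, 8.16 and 7.14 in PDGF-p53, 7.02, 6.61, 7.39 and 7.27 in PDGF-p53-RBPJ tumours and 8.12, 7.77, 7.54 and 6.44 in p53-RBPJ tumours. All tumour arrays were more than 1 log2 unit below control brain, with differences of -2.16 ± 0.30, -2.51 ± 0.30 and -2.12 ± 0.30 (limma adjusted p = 2.24e-05, 3.79e-06 and 1.74e-05). Its relative Ppargc1b differed by -0.65, -0.58 and -0.77.

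Genes of the factors whose recognition letters were searched above were measured too. Nrf1 was higher by 0.64, 0.72 and 0.72, Gabpa, the DNA-binding part of GABP, by 0.93, 1.06 and 0.87, its partner Gabpb1 by 0.75, 0.79 and 0.89, and Yy1 by 0.56, 0.55 and 0.49. Of the oestrogen-related receptor genes, Esrra was called in none (-0.15, -0.23 and -0.05). Esrrg was called lower in PDGF-p53 (-0.94, limma adjusted p = 0.0188) and p53-RBPJ tumours (-0.96, 0.0134) only. In both, some Esrrg arrays overlapped with control brain. Polg, the polymerase of mitochondrial DNA, was higher by 1.33, 1.37 and 1.37, and Tfam, which packages that DNA, by 0.47 and 0.58 in PDGF-p53-RBPJ and p53-RBPJ tumours (0.35 in PDGF-p53, not called). With housekeeping centring Polg (1.03, 0.99 and 1.1), Gabpa and Gabpb1 passed in each tumour type, Nrf1 passed in p53-RBPJ tumours only (0.35, 0.34 and 0.45), and Yy1 (0.26, 0.17 and 0.22) and Tfam (0.05, 0.09 and 0.31) passed in none.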

How the data were processed

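RNA from 16 samples in 4 groups of 4 was labelled with biotin and hybridised to Affymetrix arrays, per the labels' protocols. The deposited values are log2 expression values per probe set, and the submitters' processing notes name RMA and oligo. Their versions were not given in the sources used here. Of 35556 probe sets, 21789 had 1 gene symbol in the platform annotation, 1621 had several and 12146 had none listed. For each gene the probe set with the highest mean was used, which gave 19938 genes.

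Differences were fitted with limma 3.58.1 in R 4.3.3 over all 16 arrays (6 comparisons), with Benjamini-Hochberg adjustment over all genes and a threshold of 0.05. The ± after a difference is its standard error. The fit was tested on simulated data. Tables and plots used Python 3.11.15, numpy 2.4.6, pandas 2.3.3 and matplotlib 3.10.9. The number of arrays limits the precision: the median standard error was 0.153.

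The members and lists were chosen with earlier results of these data known. Values are given for the 4 largest rises and 4 largest falls called in each comparison, the largest and smallest difference of each complex, Sdha to Sdhd, the paralogues, and up to 2 rises and 2 falls of each further list. Values of Ndufab1, Ndufv2, Uqcrh, Uqcrfs1, Cox5b, Atp5h, Cycs, COX2, Nrf1, Yy1, Tfam and Esrra, and the promoter of Uqcr11, were added after they were seen; other genes are named only within complete lists. Alternatives were housekeeping centring, the mean of probe sets, no dim genes, trend and robust fitting, array weights, only the 2 groups compared, a replicate block, leaving out each array, and centring by chromosome.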

Additional observations from a re-analysis of the deposited data

Results flagged for a closer look

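In each group of 4 arrays, the array farthest from its neighbours was compared with Dixon's 95% critical value. Chance passes about 1 group in 20, and 4 of 156 groups checked did so. Atp5a1, the ATP synthase alpha subunit on chromosome 18, was at 10.28 in PDGF-p53-RBPJ replicate 4, against a median of 11.03 in the other 3. Cox7a2, a cytochrome oxidase subunit, was at 9.48 in PDGF-p53 replicate 4, against 9.97. Cox8b, the muscle form of Cox8, was at 4.96 in p53-RBPJ replicate 1, against 4.69. Ndufa7, of complex I, was at 8.66 in control replicate 1, against 9.26.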

How the results depend on the processing

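Against control brain, every count of members called lower stayed within 1.5 times its value except with housekeeping centring (80, 82 and 80 lower; higher: 1 for PDGF-p53-RBPJ, 0 for p53-RBPJ). Centring by chromosome, chosen after seeing the data, gave 1 higher in PDGF-p53-RBPJ tumours. Between p53-RBPJ and PDGF-p53-RBPJ tumours, 0 were lower with housekeeping centring, only the 2 groups or chromosome centring, and 7 lower and 1 higher with array weights. Between p53-RBPJ and PDGF-p53 tumours, 2 were lower with array weights, and 0 lower and 0 higher with only the 2 groups or chromosome centring. Leaving out each array gave 41 to 54, 34 to 49 and 53 to 67 lower and 1 to 1, 2 to 2 and 3 to 4 higher against control, 0 to 0 between the PDGF tumours, 0 to 5 lower against PDGF-p53-RBPJ, and 1 to 7 lower and 0 to 1 higher against PDGF-p53. The causes were not tested. With the replicate number as a block, 51, 45 and 63 members were lower against control; same-numbered arrays correlated at -0.121 to 0.182 and others at -0.22 to 0.252, so the numbers were not taken as pairs. Apart from housekeeping centring against control brain, the shares of all genes called under these settings are not given here. The counts under the other settings are therefore not set against all genes. No result changed sign past the threshold.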

Other observations

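Probe sets annotated with several symbols were outside the counts. The probe sets shared by Ndufb4 and Ndufb4b, of complex I, differed from control by -0.37 and -0.36 in PDGF-p53, -0.48 and -0.49 in PDGF-p53-RBPJ and -0.86 and -0.88 in p53-RBPJ tumours. The 3 shared by Cox7c, of complex IV, and Gm12338 differed by -0.22 to -0.25, -0.25 to -0.27 and -0.10 to -0.16. Of 18 members with several probe sets, Ndufb11 and Uqcrb had probe sets that differed in sign in some comparison.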
